A study of Mus musculus with 13 samples.

Results

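Cluster 3 microglia are the cells that the study's authors classed as microglia and placed in their transcriptional cluster 3 in a single-cell atlas of myeloid cells from the mouse spinal cord in experimental autoimmune encephalomyelitis (EAE), an induced autoimmune disease used as a model of multiple sclerosis. Both labels were read from the deposited table of cells, and 2966 of the 22148 cells, or of the 17670 microglia, carried them. The nearest other groups of microglia in the same table are cluster 1 with 4239 cells, cluster 4 with 4419 cells and cluster 9 with 5704 cells. The working label for the cells is interferon and chemokine microglia, with C4b, Ccl12, Iigp1, Ccl2 and Cxcl13 as marker genes.

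All mice carried Cx3cr1YFPCreERT2:R26tdTomato, a fate-mapping genotype in which a tamoxifen-inducible Cre driven from the Cx3cr1 locus switches on a red reporter, so that long-lived microglia can be told from cells that arrived later from blood. Live cells were sorted from cold, mechanically dissociated and myelin-depleted spinal cord (the tissue is labelled CNS) into a resident gate, labelled as CNS resident myeloid cells, and an infiltrating gate, labelled as CNS infiltrating myeloid cells. The 13 libraries, made with 10x Genomics reagents, are 3 from resident cells of healthy controls, 2 resident and 2 infiltrating at the peak of EAE, and 3 resident and 3 infiltrating in chronic EAE. GEO's labels call them biological replicates; the letters a, b and c below only name libraries, and p-values measure the spread between these libraries. The deposited table of cells marks controls a and b as peak-stage controls and control c as a chronic-stage control. The libraries were run in 4 sequencing pools. No pool held libraries of both EAE stages, so that stage and pool cannot be told apart.

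Microglia are the resident macrophages of the brain and spinal cord. Type I interferons signal through IFNAR, JAK1, TYK2 and a complex of STAT proteins with IRF9 that binds interferon-stimulated response elements (ISRE), inducing antiviral genes of the Ifit, Oas and Isg15 kind. Interferon-gamma signals through IFNGR, JAK1 and JAK2 to STAT dimers that bind gamma-activated sites (GAS), inducing guanylate-binding proteins (Gbp), immunity-related GTPases such as Iigp1 and, through Ciita, MHC class II. CC chemokines such as Ccl2 and Ccl12 attract monocytes through CCR2, Cxcl9 and Cxcl10 attract T cells through CXCR3, and Cxcl13 attracts B cells.

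The promoters of 6 genes on which the results turn are shown first, because their levels in cluster 3 did not move together. They are RefSeq sequences on GRCm38.p6 (the build the submitters' processing notes name is GRCm38), 220 bases ending just before the annotated start, 5′ to 3′ along the gene's strand. Capitals mark every base in a match to the ISRE motif GAAANNGAAA on either strand; matches may overlap, and none of the 6 held the GAS motif TTCNNNGAA, searched for in the same way.
Isg15: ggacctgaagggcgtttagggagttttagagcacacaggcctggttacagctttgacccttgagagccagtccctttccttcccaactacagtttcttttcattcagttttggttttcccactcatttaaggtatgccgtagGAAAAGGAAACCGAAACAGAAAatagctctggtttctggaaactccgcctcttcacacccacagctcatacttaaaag
Ifit1: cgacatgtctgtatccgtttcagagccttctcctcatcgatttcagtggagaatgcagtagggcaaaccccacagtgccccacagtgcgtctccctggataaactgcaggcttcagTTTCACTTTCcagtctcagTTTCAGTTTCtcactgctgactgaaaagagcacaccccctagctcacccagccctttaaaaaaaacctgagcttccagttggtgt
Ifit3: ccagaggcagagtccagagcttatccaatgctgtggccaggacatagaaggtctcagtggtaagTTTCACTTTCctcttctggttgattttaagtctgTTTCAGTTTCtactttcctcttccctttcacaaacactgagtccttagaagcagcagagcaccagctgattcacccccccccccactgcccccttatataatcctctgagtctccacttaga
Cxcl10: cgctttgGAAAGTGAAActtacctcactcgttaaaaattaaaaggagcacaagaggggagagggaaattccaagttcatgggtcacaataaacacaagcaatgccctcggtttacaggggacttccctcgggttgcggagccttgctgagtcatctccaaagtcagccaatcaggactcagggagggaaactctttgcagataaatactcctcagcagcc
Gbp3: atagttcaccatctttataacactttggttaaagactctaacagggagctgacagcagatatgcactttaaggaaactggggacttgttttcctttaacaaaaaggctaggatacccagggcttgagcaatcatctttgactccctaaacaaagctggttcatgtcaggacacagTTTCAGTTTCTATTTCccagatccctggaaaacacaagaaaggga
Ccl12: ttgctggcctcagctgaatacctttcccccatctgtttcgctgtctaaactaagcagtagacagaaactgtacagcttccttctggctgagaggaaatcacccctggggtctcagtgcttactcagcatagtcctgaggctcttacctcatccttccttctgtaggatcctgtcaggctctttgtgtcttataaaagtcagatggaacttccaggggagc
The Isg15 window is chr4:156200819-156201038 (minus strand), that of Ifit1 chr19:34640669-34640888 (plus strand), that of Ifit3 chr19:34583309-34583528 (plus strand), that of Cxcl10 chr5:92348890-92349109 (minus strand), that of Gbp3 chr3:142559824-142560043 (plus strand) and that of Ccl12 chr11:82101625-82101844 (plus strand). Isg15 encodes a ubiquitin-like antiviral protein, Ifit1 and Ifit3 encode antiviral RNA-binding proteins, and Gbp3 encodes a guanylate-binding GTPase. Isg15 held 3 ISRE matches, Ifit1, Ifit3 and this Gbp3 window 2 each, Cxcl10 1, and Ccl12 none. A second RefSeq start of Gbp3 had no match in its window. Over the 250 bases before each start, the ISRE motif was present in 2.98% of all 32851 windows and the GAS motif in 7.02%. Counted per gene, with a match in any of its windows, the shares were 3.46% and 8.13% of 27025 genes. The counts for groups of genes below are per gene in this way. A match is a description of letters and does not show that a factor binds there.

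Cluster 3 was rare in healthy cord and most abundant at the peak of disease. It made up 0.791%, 3.74% and 0.711% of the microglia of control libraries a, b and c (14, 43 and 23 cells). At peak it made up 68.9% (95% exact binomial interval 64.6 to 73.0, 335 cells) and 56.4% (52.6 to 60.1, 397 cells) of resident-gate microglia. In chronic EAE it made up 21.9% (20.1 to 23.8, 430 cells), 30.7% (28.7 to 32.7, 628 cells) and 9.32% (8.46 to 10.2, 400 cells). The means were 1.75% ± 1.73 (SD, n = 3) in controls, 62.7% ± 8.87 (SD, n = 2) at peak and 20.6% ± 10.7 (SD, n = 3) in chronic EAE, and no 2 groups overlapped. These shares are a description with no test, because the genes that define the cluster also differed between stages, and the intervals cover counting error only. The infiltrating-gate libraries held few such cells (5 and 0 at peak, 0 and 6 in chronic a and c), except chronic b, with 685 cells or 35.8% of its microglia (33.6 to 38.0). A further 71 cells of cluster 3 were classed by the authors as other than microglia, 65 of them as macrophages, and were not used.

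**Figure D1:**
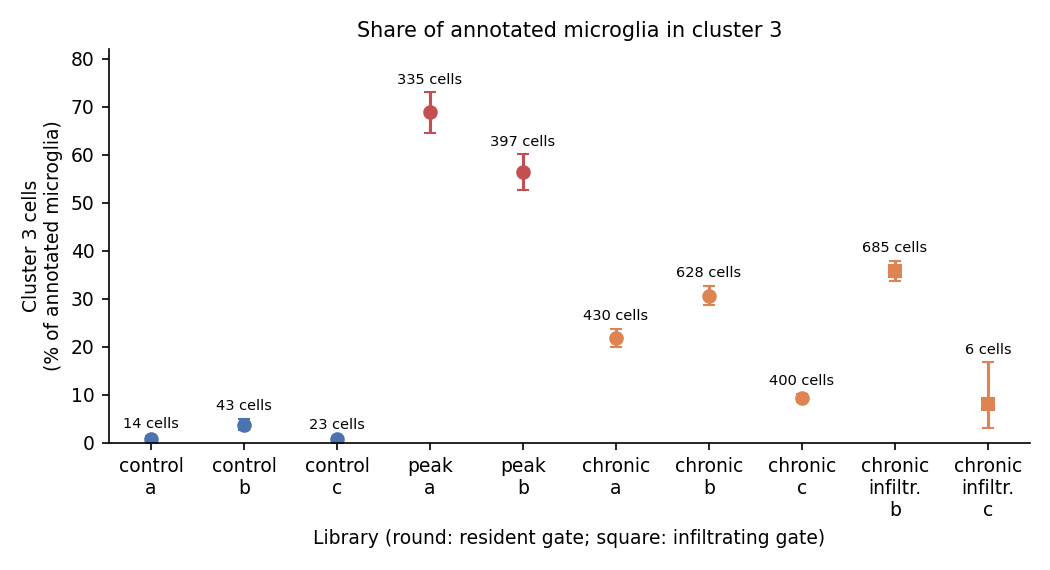
Share of microglia placed in cluster 3, in percent, for the 10 libraries drawn, with 95% exact binomial intervals and the number of cluster 3 cells; round points are resident-gate and square points infiltrating-gate libraries. Both peak resident libraries lie above 56%, the 3 chronic resident libraries between 9.32% and 30.7%, and the 3 controls below 4%.

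The cells carried microglial genes, and the defining genes of other cell types were low. All 10 microglial markers, among them P2ry12, Tmem119 and Sall1, were detected. Levels here and below are in CPM, the customary depth-scaled unit: a gene's unique molecular identifiers (UMIs) relative to all UMIs summed over the cluster 3 cells of a library. Over the control, peak and chronic resident libraries, the 12 monocyte markers summed to 72.4 to 269 CPM, with Ly6c2 at 0 in 4 of them, and the border-associated macrophage markers to 57.1 to 155 CPM. Summed T cell markers reached 67.4 CPM, natural killer markers 5.48 CPM, B cell markers 39.5 CPM and oligodendrocyte markers 219 CPM. The 10 neutrophil markers summed to 175.5 to 405 CPM, with Ly6g and Ltf at 0 in all 7 libraries. The 11 dendritic cell markers, which include Siglech and Fscn1 that microglia also express, summed to 269.6 to 1455 CPM, with Flt3, Clec9a, Cd209a and Ccr7 at 0 in all 7. The sums behind each library ranged from 81607 UMIs (control c, 23 cells) and 222706 UMIs (control b) to 4274861 UMIs (peak b); control a, with 14 cells, was not entered into a test. The peak cells were deeper, with a median of 9224 and 10677 UMIs per cell against 3053, 2554 and 3379 in chronic EAE, and their median mitochondrial share was 2.60% and 2.27% against 0.929%, 0.964% and 1.07%; the part of either in the stage differences below was not tested, beyond a fit with every cell thinned to 2000 UMIs. No doublets are marked in the deposited table. A barcode found in more than 1 library was carried by 19 cluster 3 cells, and 2 barcodes were shared between libraries within cluster 3.

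Within the same chronic libraries, cluster 3 stood out from the other microglia by a small set of interferon-induced genes rather than by the 5 marker genes together. Because cells were clustered on their expression, this is a description with no test. A gene was counted if its CPM, with 5 CPM added, was at least 2-fold higher in cluster 3 than in each of clusters 1, 4 and 9 in every chronic library with at least 20 cells of both; cluster 9 could be compared in chronic c alone (22 cells). Of 8896 genes, 8 (0.0899%) were higher in this way and 0 were lower; with 1 CPM added in place of 5 the count was 15, with 20 CPM 4, and without chronic b 33. They were Cxcl10, Ifit1, Ifit2, Ifit3, Ifit3b, Isg15, Gbp4 and Cd40, the costimulatory receptor through which T cells activate myeloid cells. Their smallest log2 ratios ran from 1.01 for Gbp4, just inside the 2-fold limit, to 2.64 for Cxcl10.

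Cxcl10 was at 928, 457 and 891 CPM in cluster 3 of chronic a, b and c, at 15.5, 15.1 and 7.61 CPM in cluster 1 and at 93.8, 69.0 and 12.2 CPM in cluster 4. Isg15 was at 723, 269.7 and 247 CPM in cluster 3, at 86.0, 70.1 and 37.5 CPM in cluster 1 and at 251, 118 and 23.4 CPM in cluster 4. Ifit3 was at 556, 180.4 and 348 CPM, against 67.7, 70.1 and 36.8 CPM in cluster 1 and 78.4, 52.2 and 12.8 CPM in cluster 4. In each chronic library the cluster 3 value was the highest of the 3 clusters for each of these 3 genes. Ifit3 and Ifit3b are near-identical neighbours, and counting could split reads between them. Ifit2, Ifit3, Ifit3b and Ifit1 lie in 1 stretch of chromosome 19, from chr19:34550694-34576419 for Ifit2 to chr19:34640871-34650009 for Ifit1 (GRCm38). Among the 8 genes, 6 had a RefSeq promoter window, and 5 of those (Cxcl10, Ifit1, Ifit3, Ifit3b and Isg15) held an ISRE match.

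**Figure D2:**
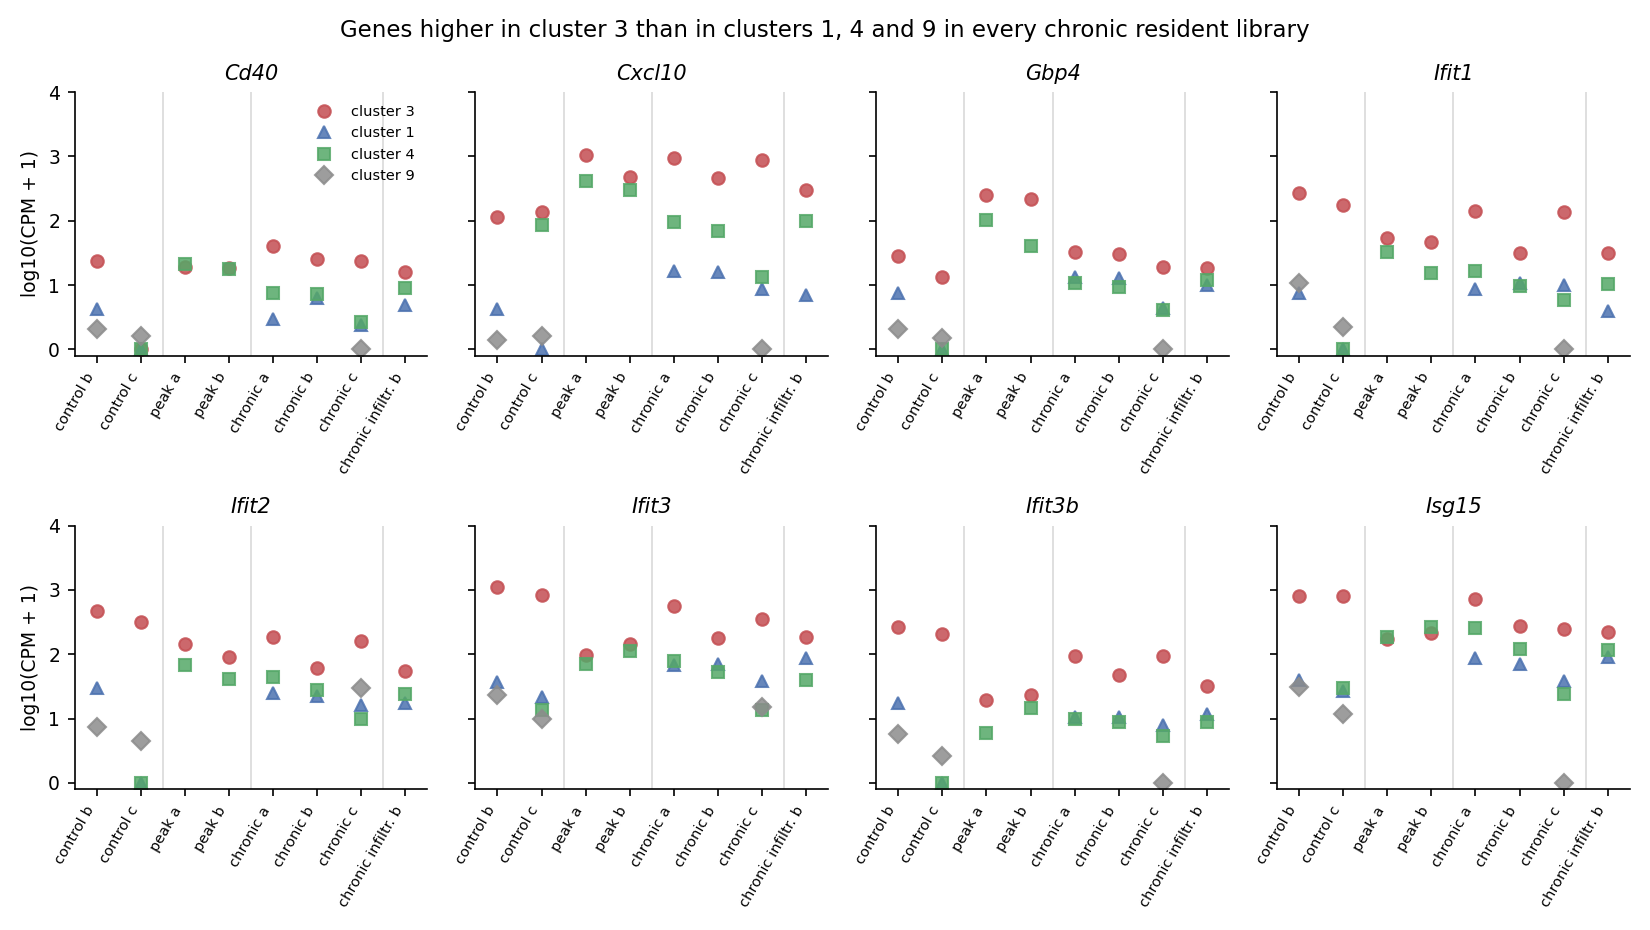
CPM on a log10(CPM + 1) axis of the 8 genes at least 2-fold higher in cluster 3 than in clusters 1, 4 and 9 in every chronic resident library, for each library and cluster with at least 20 cells. Cxcl10 in chronic libraries lies between 457 and 928 CPM in cluster 3 and between 7.61 and 93.8 CPM in clusters 1 and 4.

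Against single clusters the picture differed by neighbour. Against cluster 1, 31 genes (0.348%) were at least 2-fold higher in all chronic libraries and 0 were lower. They included 9 of 31 type I interferon antiviral genes, 5 of 16 interferon-gamma inducible GTPases (Iigp1, Gbp2, Gbp4, Gbp5 and Ifi47), Ccl2 and Ccl4 of the CC chemokines, Cxcl9, Cxcl10 and Cxcl13 of the CXC chemokines, and H2-Aa, H2-Ab1, H2-Eb1, Cd74 and Ciita of the MHC class II genes. Against cluster 4, 174 genes (1.96%) were higher and 67 (0.753%) lower. The higher genes included 8 of 18 homeostatic microglial genes (P2ry12, Tmem119, Cx3cr1, Sall1, Siglech, Selplg, Slc2a5 and Crybb1) and 11 of the 31 type I antiviral genes. The lower genes included 12 of 25 disease-associated microglial genes, the lipid-handling and lysosomal set of microglia near damage, among them Spp1, Gpnmb, Lpl, Igf1 and Clec7a. Spp1, which encodes osteopontin, was at 995, 303 and 396 CPM in cluster 3 against 8583, 7428 and 13067 CPM in cluster 4. The median log2 ratio to cluster 4 was 1.31 for the GTPases, 1.31 for the type I antiviral genes, 1.18 for the homeostatic genes and -1.08 for the disease-associated genes, against 0.19 to 0.31 for all genes. To cluster 1 it was 1.01, 1.14, -0.45 and 0.26, against -0.11 to -0.05 for all genes.

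The 5 marker genes set the cluster apart unevenly. C4b, which encodes a complement C4 protein and has the near-identical copy C4a, was at 300.4, 299 and 134 CPM in cluster 3 of the chronic libraries and at 299.7, 208 and 75.0 CPM in cluster 1, so that the 2 clusters were level in chronic a. Iigp1 was at 317, 176 and 170.2 CPM in cluster 3, at 57.0, 53.9 and 28.9 CPM in cluster 1 and at 109, 86.6 and 26.4 CPM in cluster 4. Ccl12 was at 6034, 3451 and 2020.0 CPM in cluster 3, at 2281, 1924 and 292 CPM in cluster 1 and at 1703, 1055 and 224 CPM in cluster 4. Iigp1, Ccl2 and Cxcl13 passed the 2-fold rule against cluster 1, and Ccl12 passed it against cluster 4; C4b passed against neither. For Ccl2, which was at 1018, 355 and 255 CPM in cluster 3, cluster 4 reached 419, 284 and 88.1 CPM. Cxcl13 was at 734, 645 and 253 CPM in cluster 3 and at 381, 518 and 160.5 CPM in cluster 4. The label's markers were thus higher in cluster 3 than in cluster 4 in every chronic library. In those libraries, however, the genes that led the cluster were the Ifit genes, Isg15, Cxcl10, Gbp4 and Cd40. At peak, the marker Cxcl13 was lower in cluster 3, at 81.9 and 23.2 CPM against 144 and 36.1 CPM in cluster 4. C4b, Ccl12, Iigp1 and Ccl2 were higher in cluster 3 in both peak libraries. Isg15 at peak was at 169 and 211 CPM in cluster 3 and at 187 and 268 CPM in cluster 4. Cd40 was near level, at 17.9 and 17.3 against 20.1 and 16.7 CPM. The Ifit genes, Cxcl10 (1058 and 477 against 413 and 301 CPM) and Gbp4 were higher in cluster 3 at peak too. Of 8896 genes, 1134 (12.7%) were at least 2-fold higher than in cluster 4 in both peak libraries and 22 (0.247%) were lower. The lower genes included Ccl5 and Cxcl9.

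**Figure D3:**
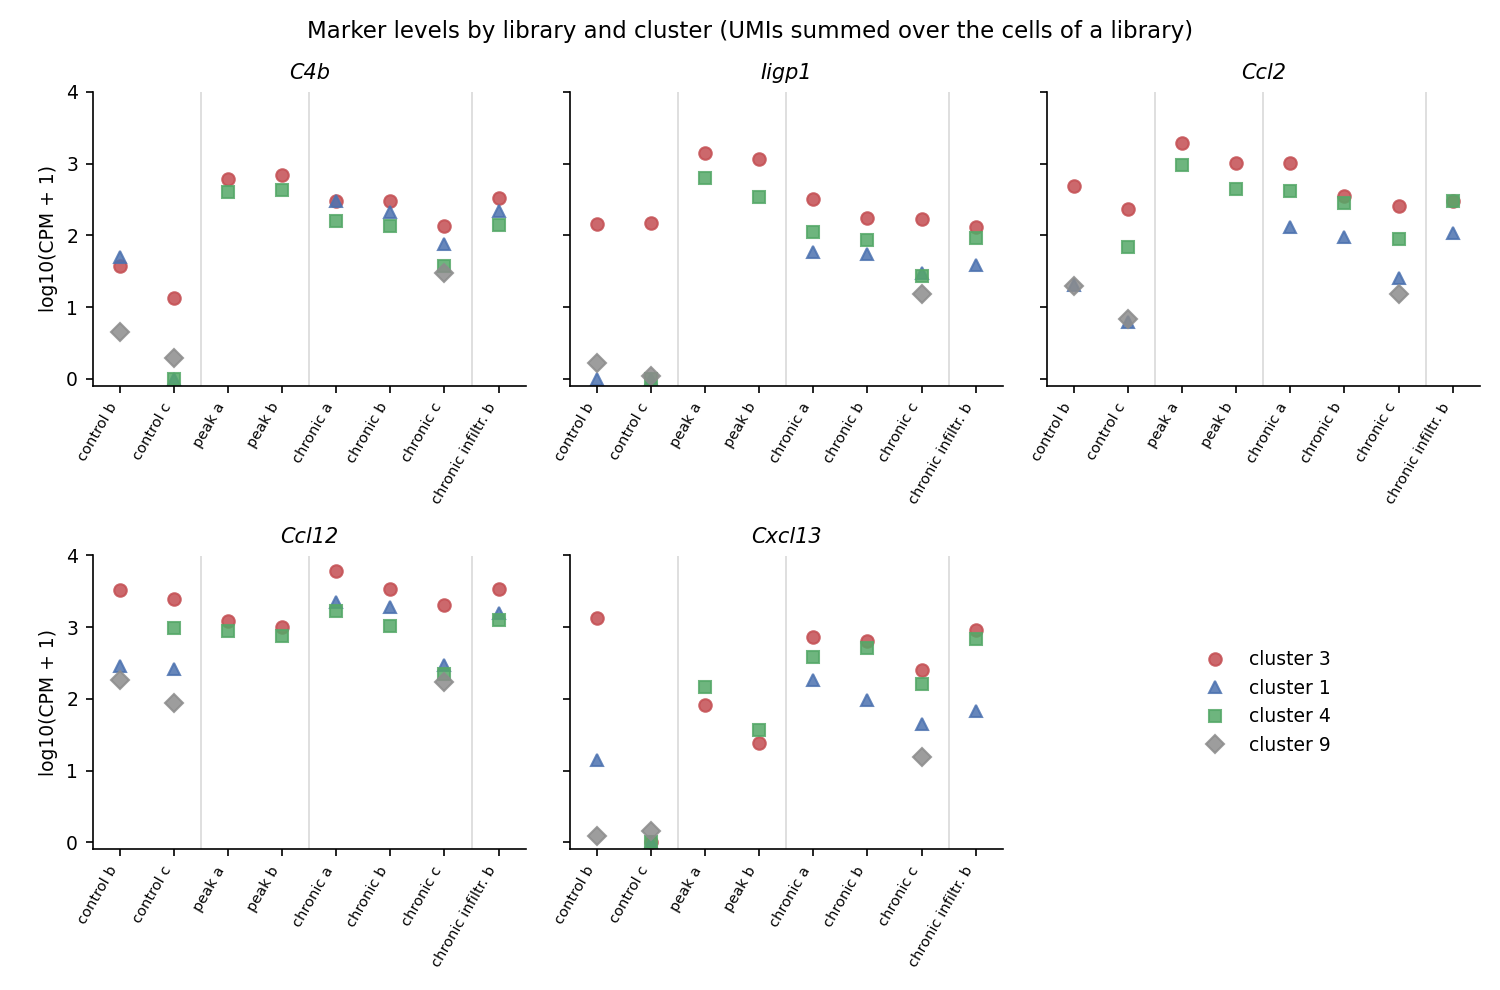
CPM on a log10(CPM + 1) axis of C4b, Ccl12, Iigp1, Ccl2 and Cxcl13 for each library and microglial cluster with at least 20 cells. Iigp1 in cluster 3 is highest in the 2 peak libraries (1420.3 and 1165 CPM), and Ccl12 is lower there (1236 and 1004 CPM) than in the 3 chronic resident libraries (2020.0 to 6034 CPM).

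Single cells differed in how many of the markers they carried. After thinning each cell to 2000 UMIs, at least 3 of the 5 markers were detected in 34.5%, 20.9% and 10.7% of cluster 3 cells in chronic a, b and c, in 62.9% and 60% at peak, and in 12.5% and 4.76% in control b and c. Thinning left out 50, 158 and 16 chronic, 6 and 17 peak, and 3 and 2 control cells with fewer UMIs. In cluster 4 the shares were 14.2%, 8.05% and 0.686% in chronic EAE and 28.8% and 24.4% at peak. Cluster 3 was above cluster 4 in every library of both stages. Ccl12 was found in 83.2%, 70.6% and 47.1% of thinned chronic cluster 3 cells (unthinned 88.1%, 78.8% and 54.2%), against 10.9%, 14.3% and 6.25% of the T cells of the same libraries, which should lack it and whose median depths were 3222, 2926 and 3565 UMIs.
Cxcl13 and Cxcl10 transcripts were held by few cells. The 10% of thinned chronic cells with the most Cxcl13 UMIs held 88.8%, 95.8% and 100% of its UMIs, and for Cxcl10 that share was 97.7%, 98.2% and 99.8%; single cells held up to 90 Cxcl13 UMIs. For Ifit3 that share was 80.0%, 79.2% and 90.8%, for Isg15 60.3%, 79.1% and 82.8%, and for Ccl2 69.7%, 74.8% and 93.9%. Ccl12 was spread more widely, with 50.0%, 64.8% and 74.1%. Cxcl10 was detected in 14.7%, 11.7% and 10.4% of the thinned cells, against 4.35%, 2.38% and 0% of the T cells. Iigp1 was in 28.7%, 19.8% and 13.5% of thinned chronic cells (T cells 13.04%, 7.14% and 0%) and in 71.4% and 76.3% of thinned peak cells, and the 10% of cells richest in it held 64.0%, 71.4% and 90.1% of the UMIs in chronic EAE but 35.0% and 33.1% at peak. The cells with many Cxcl10 UMIs were thus a minority within a cluster whose Ccl12 was common.

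The comparison of peak with chronic EAE inside cluster 3 asks how the same annotated population differs between the stages. At peak the cells had more Iigp1, C4b, Ccl2, Ciita, Fos and Egr1 transcripts and fewer Ccl12, Cxcl13, Fcrls, P2ry12, Apoe and Fabp5 transcripts. By list, 14 of 17 interferon-gamma inducible GTPases rose, and 6 of 18 homeostatic and 12 of 25 disease-associated microglial genes fell. With edgeR's quasi-likelihood test on UMI counts summed per library (2 peak, 3 chronic and 2 control libraries in 1 fit), 1638 of 9314 genes (17.6%) passed an adjusted p of 0.05. Of all genes tested, 901 (9.67%) were higher and 737 (7.91%) lower at peak, and the median log2 fold change over all genes was 0.01. Stage and pool cannot be told apart in these values: with pool as a term, which rests the comparison on the 2 small control libraries, 18 genes passed, 11 of them among the 1638, and 5 of the 68 named genes called kept the call (Fcrls, Tmem176b, Gbp2, Cxcl13 and Ciita). Of these, Cxcl13 was at 1343 CPM in control b and 0 in control c. After thinning, 1 cell of control b held 42 of the 48 Cxcl13 UMIs in that library's cluster 3. The count was 285 without peak a, 733 without peak b, 763 without chronic b, 2457 without chronic c and 904 with DESeq2; 946 genes passed after thinning to 2000 UMIs per cell. With library size only, 67.1% of the calls were higher against 55.01% in the fit reported, with a median of 0.11 over all genes.

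Of the 5 markers, 3 were higher and 2 lower at peak. Iigp1 was at 1420.3 and 1165 CPM at peak and at 317, 176 and 170.2 CPM in chronic EAE, a log2 fold change of 2.43 ± 0.30 (SE; adjusted p = 1.2e-05). C4b was at 604 and 695 CPM at peak and at 300.4, 299 and 134 CPM in chronic EAE (log2 fold change 1.30 ± 0.32, adjusted p = 0.0075). The peak values of both lay above all chronic values. Ccl2 was at 1940.3 and 1035 CPM at peak, the lower value just above the 1018 CPM of chronic a and well above chronic b and c at 355 and 255 CPM (log2 fold change 1.30 ± 0.42, adjusted p = 0.034). Ccl12 was at 1236 and 1004 CPM at peak and at 6034, 3451 and 2020.0 CPM in chronic EAE, so that it fell by 1.91 ± 0.40 on the log2 scale (adjusted p = 0.0022). Cxcl13 was at 81.9 and 23.2 CPM at peak and at 734, 645 and 253 CPM in chronic EAE, and fell by 3.55 ± 0.74 (adjusted p = 0.0021). Neither chemokine overlapped between the stages; over all genes tested, 47.5% did not overlap.
The call of Iigp1 held without any 1 library. That of C4b was lost without peak b (with pool as a term its log2 fold change was 0.71), that of Ccl12 without peak a, that of Cxcl13 without peak b and with DESeq2, and that of Ccl2 without chronic b, peak a or peak b and with DESeq2. Ccl2 (chr11:82035571-82037453), Ccl7 (chr11:82045712-82047525) and Ccl12 (chr11:82101845-82103400) lie in 1 chemokine gene cluster on GRCm38. Ccl7, another monocyte attractant, was at 115 and 60.8 CPM at peak against 23.6, 21.4 and 3.35 CPM (log2 fold change 2.28 ± 0.39, adjusted p = 0.00038); with pool as a term it was -2.07.

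Among receptors and kinases of the interferon and cytokine pathways, 3 of 18 were higher and 4 lower at peak (17.6% of all genes were called). Csf2rb, the shared beta chain of the GM-CSF, interleukin-3 and interleukin-5 receptors, was at 203 and 152 CPM at peak against 60.3, 51.0 and 64.3 CPM (log2 fold change 1.49 ± 0.25, adjusted p = 0.00025); Csf2rb2 and Jak2 were the others that rose. Ifngr1, the ligand-binding chain of the interferon-gamma receptor, was at 265 and 324 CPM at peak against 658, 912 and 897 CPM, and fell by 1.57 ± 0.30 on the log2 scale (adjusted p = 0.001); Ifngr2, Ifnar2 and Jak1 also fell. The call of Ifngr1 was lost without peak a, where 2 genes of the list were higher and 0 lower; without peak b the counts were 2 and 1, and without chronic a or b 2 and 2 each.
Of 16 STAT, IRF and SOCS genes, 3 were higher and 1 lower, beside 9.67% higher and 7.91% lower over all genes tested. Stat2, a transcription factor of type I interferon signalling, was at 280 and 185 CPM at peak against 91.2, 59.8 and 50.9 CPM (log2 fold change 1.66 ± 0.34), and control b and c stood at 404 and 98.0 CPM. Stat3 and Irf8 were the other 2 that rose, by 1.26 ± 0.26 and 0.87 ± 0.29. Irf7, the amplifier of the type I response, was at 119.6 and 124 CPM at peak and at 505, 227 and 118 CPM in chronic EAE, fell by 1.34 ± 0.40 (adjusted p = 0.023) and overlapped with chronic c. No gene of this list passed without peak a; 6 rose and 0 fell without chronic a.

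The interferon-gamma inducible GTPases were higher at peak as a group. Of 17 tested, 14 rose and 0 fell, with a median log2 fold change of 1.83 against 0.01 over all genes; Irgm1, Igtp and Ifi47 did not pass. Gbp4 was at 253 and 215 CPM at peak against 31.5, 29.1 and 18.1 CPM (log2 fold change 3.03 ± 0.28, adjusted p = 2.1e-07). Gbp5, a guanylate-binding protein that acts on inflammasomes, was at 337 and 227 CPM against 72.8, 55.9 and 60.3 CPM (2.04 ± 0.26, adjusted p = 1.4e-05). Gbp2 was at 421 and 649 CPM against 195, 138 and 88.4 CPM (1.83 ± 0.34, adjusted p = 0.00083). The peak libraries lay above the chronic ones for all 3 genes. The summed CPM of the 17 genes was 4266 and 4004 at peak, 1488, 1024 and 963 in chronic EAE, and 1661 and 1372 in control b and c, so that the chronic values lay near the controls. Leaving out 1 library left 10 to 15 GTPases higher; with pool as a term 1 was, Gbp2. Members of the Gbp family, Tgtp1 and Tgtp2 are close copies, and single members are uncertain to that extent. Of the 14 that rose, 7 had a RefSeq promoter window, of which 7 held an ISRE and 5 a GAS match; of the 10 in the whole list with a window, 9 held an ISRE and 6 a GAS match.

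Type I interferon antiviral genes did not move as one. Of 31 tested, 5 rose (Oas2, Oas3, Ifi204, Zbp1 and Slfn2) and 4 fell (Ifit1, Ifit3, Ifit3b and Isg15), with a median log2 fold change of 0.24. Oas2, a sensor of double-stranded RNA, was at 72.5 and 46.3 CPM at peak against 22.96, 7.13 and 10.7 CPM (2.02 ± 0.35). Ifit3 was at 97.6 and 143 CPM at peak against 556, 180.4 and 348 CPM in chronic EAE, and fell by 1.67 ± 0.38 on the log2 scale (adjusted p = 0.004). Isg15 was at 169 and 211 CPM against 723, 269.7 and 247 CPM, and fell by 1.23 ± 0.38 (adjusted p = 0.028). Neither overlapped between the stages, whereas Ifit1, at 52.4 and 46.3 CPM against 143, 30.7 and 138 CPM, did (adjusted p = 0.042). The call of Ifit1 was lost with DESeq2, with library size only, after thinning and without chronic a. The 4 that fell all had a promoter window with an ISRE match, 3 of which are printed above, and none had a GAS match; over the 25 genes of the whole list with a window, 15 held an ISRE and 3 a GAS match.
The highest levels were those of the few control cells: Ifit3 was at 1109 and 821 CPM and Isg15 at 790.3 and 796 CPM in control b and c, and in the 14 cells of control a at 1750 and 1354 CPM. The summed CPM of the 31 genes was 14369 and 11028 in control b and c, 5809 and 6493 at peak and 7549, 3862 and 4512 in chronic EAE. The counts depended on single libraries: 11 rose and 2 fell without chronic a, 3 and 6 without chronic b, 3 and 1 without peak a, and 1 and 2 without peak b. The call of Ifit3 was lost without peak a and that of Isg15 without chronic a, peak a or peak b, while Ifit3b, at -2.01 ± 0.31 (adjusted p = 0.00016), kept its call without any 1 library.

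**Figure D4:**
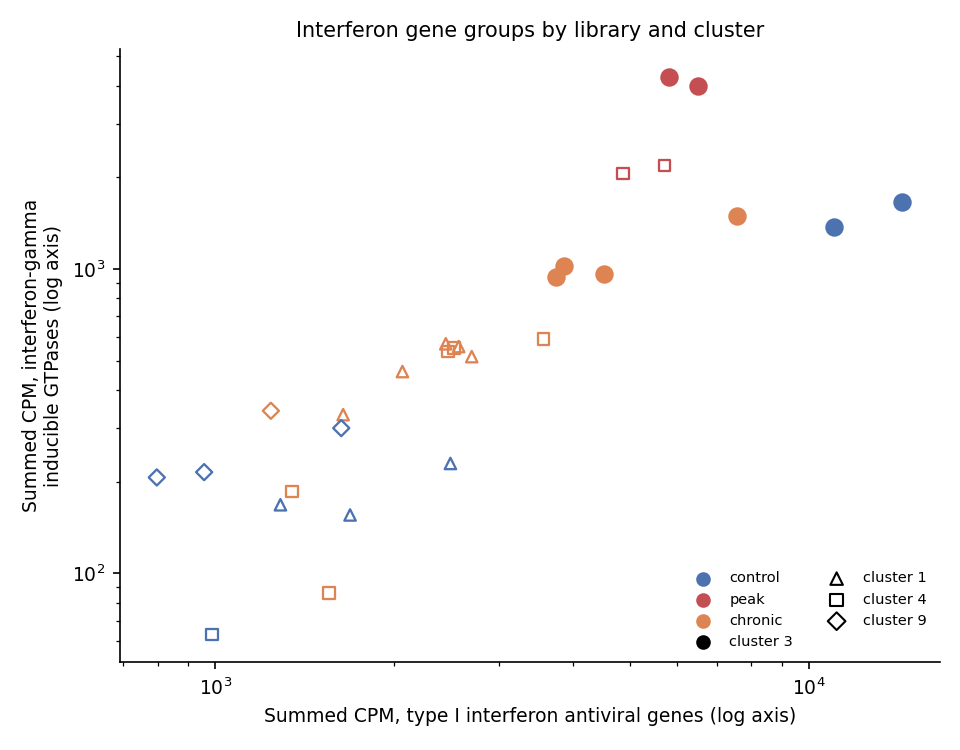
Summed CPM of the interferon-gamma inducible GTPases against that of the type I interferon antiviral genes, both on log axes, 1 point per library and cluster; colour gives the stage, filled circles are cluster 3 and open symbols clusters 1, 4 and 9. The 2 peak cluster 3 points are highest on the GTPase axis (4266 and 4004 CPM), and the 2 control cluster 3 points are highest on the type I axis (14369 and 11028 CPM).

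The chemokines divided within the cluster. Of 9 CC chemokines tested, 2 rose at peak (Ccl2 and Ccl7) and 4 fell (Ccl12, Ccl5, Ccl6 and Ccl4). Ccl5, a T cell and monocyte attractant, was at 412 and 387 CPM at peak against 1084, 1058 and 612 CPM, and fell by 1.32 ± 0.32 on the log2 scale (adjusted p = 0.007). Of 5 CXC chemokines, 0 rose and 2 fell, Cxcl13 and Cxcl14. Cxcl10, with the highest ratio to the neighbouring clusters in the description above, was at 1058 and 477 CPM at peak and at 928, 457 and 891 CPM in chronic EAE, with overlapping groups (log2 fold change -0.11, adjusted p = 0.84). Cxcl9 was at 473 and 281 CPM against 186, 154 and 294 CPM (0.72, adjusted p = 0.19), and the groups overlapped as well. Without peak a or without peak b, 1 CC chemokine rose and 2 fell, and with DESeq2 0 rose and 3 fell.

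Of 12 complement genes, 4 rose (C4b, Cfb, Serping1 and Itgam, a chain of the complement receptor CR3) and 0 fell. Serping1, which encodes the C1 inhibitor, was at 44.3 and 44.0 CPM at peak against 9.18, 3.84 and 0 CPM (3.22 ± 0.46), and Cfb, of the alternative pathway, was at 34.9 and 55.7 CPM against 17.7, 13.7 and 2.01 CPM (1.91 ± 0.41). Without peak b 1 of them passed, and with DESeq2 2 rose and 2 fell.
Of 19 MHC class I and peptide loading genes, 8 rose and 1 fell (median 0.68). H2-Q7 (1.73 ± 0.29), which has the close copy H2-Q6, and Nlrc5, the class I transactivator (2.19 ± 0.34), were among those that rose. The counts were 2 and 1 without chronic b, 3 and 0 without peak a, and 2 and 1 without peak b, and with pool as a term the value of Nlrc5 was -7.62.
Of 11 MHC class II genes, 3 rose: H2-Ab1, H2-DMb2 and Ciita, the master activator of class II transcription. Ciita was at 193 and 113 CPM at peak against 15.1, 15.9 and 9.38 CPM (3.36 ± 0.36, adjusted p = 1.9e-06), a difference that every alternative kept past the threshold. Cd74, the invariant chain, did not pass (-1.0, adjusted p = 0.27). Without peak a or without peak b, 1 class II gene rose. Cd274, which encodes the checkpoint ligand PD-L1, was at 215 and 126 CPM against 58.4, 29.6 and 30.8 CPM (1.98 ± 0.31, adjusted p = 0.00016; -5.60 with pool as a term), while Cd40 stood at 17.9 and 17.3 CPM against 40.0, 24.1 and 22.8 CPM and did not pass (adjusted p = 0.078).

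Of 18 homeostatic genes, 0 rose and 6 fell (P2ry12, Gpr34, Fcrls, Olfml3, Cst3 and Ltc4s; median -0.71). Fcrls, a microglia-restricted Fc receptor-like gene, was at 45.2 and 23.4 CPM at peak against 1055, 552 and 486 CPM, and fell by 4.49 ± 0.41 on the log2 scale (adjusted p = 2.1e-07), a call kept under every alternative. P2ry12, the ADP receptor that guides microglial processes, was at 382 and 280.0 CPM against 697, 1241 and 915 CPM, and fell by 1.64 ± 0.32 (adjusted p = 0.0013). Both genes separated the stages fully. The summed CPM of the list was 19259 and 19584 at peak, 43628, 50729 and 55328 in chronic EAE and 69405 and 98742 in control b and c.
Of 25 disease-associated genes, 0 rose and 12 fell (Apoe, Tyrobp, Spp1, Gpnmb, Cd9, Cd68, Ctsl, Igf1, Fabp5, Ank, Ccl6 and Timp2; median -0.84). Fabp5, a fatty acid-binding protein, was at 14.4 and 9.82 CPM at peak against 207, 200.1 and 111 CPM, and fell by 3.96 ± 0.35 (adjusted p = 1.6e-07). Gpnmb, a lysosomal glycoprotein, was at 3.45 and 3.74 CPM against 32.1, 40.6 and 18.1 CPM, and fell by 3.16 ± 0.40. Apoe, the lipid carrier, was at 10473 and 12377 CPM against 20910.1, 20045 and 34513 CPM, and fell by 1.22 ± 0.40 (adjusted p = 0.036), a call lost without peak a, peak b or chronic b. Without peak a 7 of the list fell, and without peak b 5.

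Further genes were named for a small p-value and no overlap between the stages. Itgal, the alpha chain of the integrin LFA-1, was at 162 and 145.5 CPM at peak against 15.7, 14.8 and 8.04 CPM (3.45 ± 0.30, adjusted p = 1.6e-07; -1.50 with pool as a term). Cd36, a scavenger receptor, was at 316 and 258 CPM against 64.9, 48.2 and 10.7 CPM (2.66 ± 0.38). Among genes that fell, Tmem176b was at 53.4 and 62.0 CPM against 514, 288 and 479 CPM (-2.97 ± 0.34), Fscn1, an actin-bundling protein, at 14.4 and 7.95 CPM against 78.7, 142 and 103 CPM (-3.40 ± 0.37), and Cst3, which encodes cystatin C, at 6676 and 6152 CPM against 22815, 27992 and 36124 CPM (-2.27 ± 0.38, adjusted p = 0.0003).

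Genes induced when cells are dissociated were among those that rose. Of 20 such genes, 9 rose (Fos, Fosb, Jun, Egr1, Hsp90aa1, Dusp1, Btg2, Zfp36 and Rgs1) and 1, Hspa1b, fell (median 0.72). Their summed CPM was 3592 and 2285 at peak, 1672, 1389 and 1423 in chronic EAE and 3017 and 2120 in control b and c, so that the peak range overlapped with the controls. Egr1, an immediate-early transcription factor, was at 265 and 112 CPM against 26.9, 7.13 and 23.4 CPM (3.18 ± 0.39, adjusted p = 9.3e-06), and with pool as a term the value was -5.75. Rgs1, a regulator of G-protein signalling, was at 156 and 88.4 CPM against 7.87, 10.4 and 16.7 CPM (3.27 ± 0.31, adjusted p = 2.5e-07). The part of handling in the other differences at peak was not tested.
Of 19 cell cycle genes, 6 rose and 0 fell, Mki67 by 2.36 ± 0.57 and Mcm5 by 2.21 on the log2 scale; 2 rose without peak a. Of 18 inflammatory cytokines and brakes, 6 rose (Tnf, Il18bp, Nfkbiz, Tnfaip3, Zfp36 and Acod1) and 3 fell (Il12b, Il1rn and Tgfb1); without peak a, 2 rose and 1 fell. Of 36 nuclear complex I subunits, 1 rose and 3 fell (Ndufa3, Ndufc2 and Ndufs7), a smaller share than the 17.6% over all genes; 0 passed without peak a, 1 rose and 1 fell without chronic a, 0 rose and 1 fell without chronic b, 0 rose and 13 fell without chronic c, and the 3 turned to 0.77, 0.21 and 0.22 with pool as a term. Of 18 NADPH oxidase and antioxidant genes, 4 rose (Cybb, Ncf1, Sod1 and Txn1) and 1 fell (Gpx1).

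**Figure D5:**
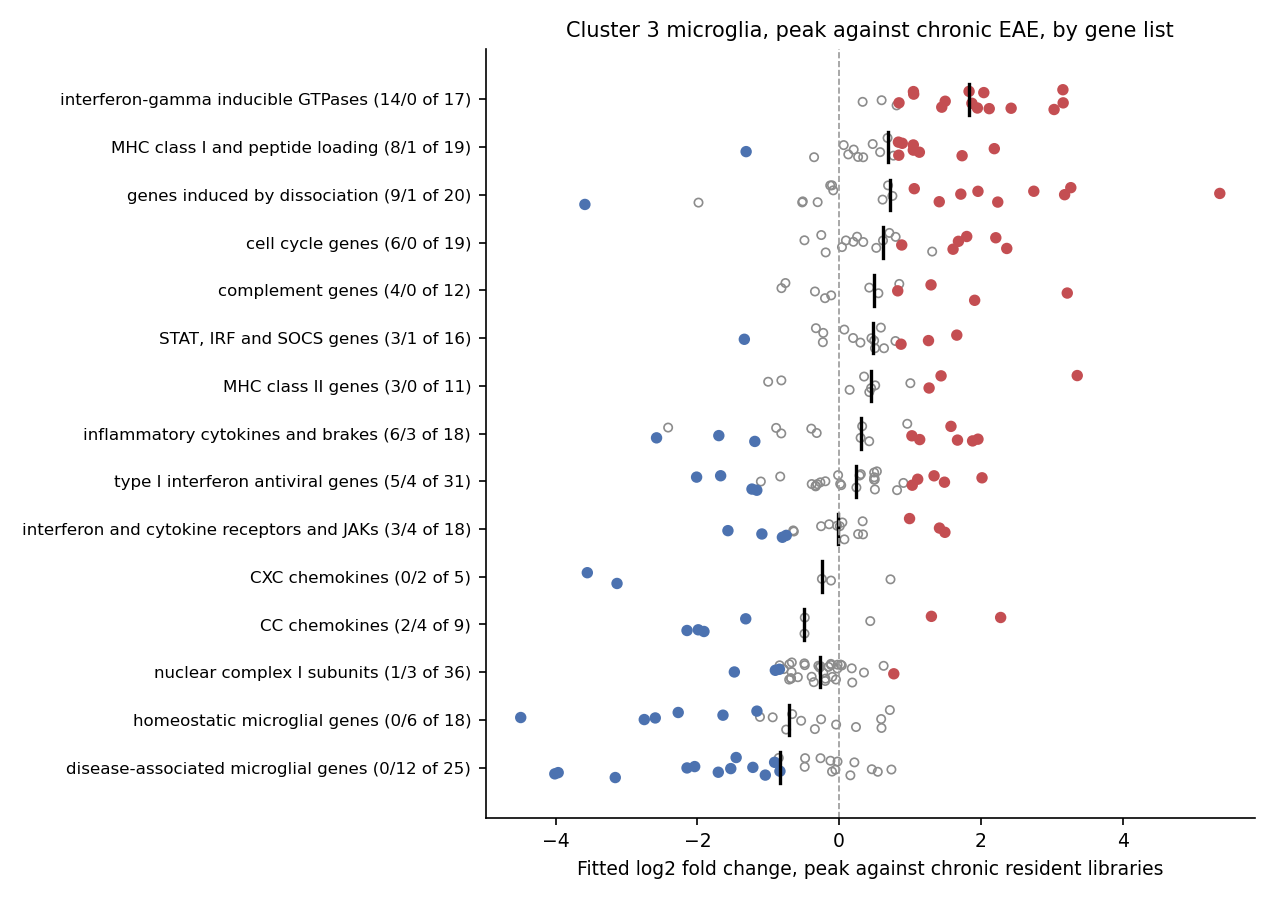
Fitted log2 fold change, peak against chronic, of each tested gene in 15 gene lists within cluster 3; filled red points passed as higher, filled blue points as lower, open points did not pass, and the black bar is the list's median. The numbers at the side are genes higher and lower of those tested, such as 14 and 0 of 17 for the interferon-gamma inducible GTPases.

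The stage difference in cluster 3 was set against that in clusters 1, 4 and 9 summed, as an interaction with the library as a block. Cells were placed in clusters by the same expression values, so for genes that set cluster 3 apart, such as Cxcl10, Isg15 and the markers, the p-values are not independent of how the cells were grouped. The T cell attractants and antiviral genes behaved differently in the neighbours: Cxcl9, Cxcl10 and Isg15 were higher at peak relative to chronic EAE in the other clusters than in cluster 3. Of 9906 genes, 1387 (14%) passed with edgeR's quasi-likelihood test, 537 (5.42%) with a stage difference higher in cluster 3 and 850 (8.58%) with one lower. The peak libraries held 6 and 3 cells of cluster 1 and 0 of cluster 9, so that the neighbours at peak were in effect cluster 4 (110 and 247 cells). Those cluster 4 cells were shallower, with a median of 4450.5 and 5655 UMIs against 9224 and 10677 in cluster 3. In chronic a, b and c the medians were 2925, 2724 and 4695.5 UMIs against 3053, 2554 and 3379. With every cell thinned to 2000 UMIs, 1247 genes passed, and the part of depth was not tested further. Without peak b 80 genes passed, without chronic a 790, without chronic c 919, and with DESeq2 666. With library size only, 89.0% of the calls were higher against 38.7% in the fit reported, and the median over all genes was 0.44 against 0.05, so that values here are relative to the scaling. All 14 of the named genes called kept the call against cluster 4 alone; C4b and Sall3 lost it without peak b.

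Cxcl9 was at 473 and 281 CPM at peak and 186, 154 and 294 CPM in chronic EAE in cluster 3, but at 1163 and 913 CPM at peak and 68.9, 114 and 69.2 CPM in chronic EAE in cluster 4. Its stage difference was lower in cluster 3 by a log2 value of -3.68 ± 0.37 (adjusted p = 3.1e-06). Cxcl10 in cluster 4 was at 413 and 301 CPM at peak and at 93.8, 69.0 and 12.2 CPM in chronic EAE, and the interaction was -3.60 ± 0.55 (adjusted p = 0.0003). For both T cell attractants the peak values lay above all chronic values in cluster 4, and the stages overlapped in cluster 3. Over all genes tested in cluster 3, 47.5% did not overlap, and this share was not counted for cluster 4. Isg15 in cluster 4 was at 187 and 268 CPM at peak and at 251, 118 and 23.4 CPM in chronic EAE, and the difference of differences was -2.61 ± 0.31 (adjusted p = 1.3e-05). For Ccl12, cluster 4 stood at 873 and 761 CPM at peak and at 1703, 1055 and 224 CPM in chronic EAE; the interaction was -1.98 ± 0.28 (adjusted p = 8.5e-05). Of the other markers, Cxcl13 passed at -2.15 ± 0.26 and C4b at -0.76 ± 0.18 (adjusted p = 0.0068; not with library size only), while Iigp1 (-0.70, adjusted p = 0.08) and Ccl2 (-0.66, adjusted p = 0.13) did not.
Ly6a, a GPI-anchored interferon-induced surface protein, was at 562 and 773 CPM at peak and 136, 174 and 84.4 CPM in chronic EAE in cluster 3, and at 509.9 and 850.1 against 52.7, 53.9 and 7.74 CPM in cluster 4 (interaction -2.0 ± 0.22). In the other direction, Rgs1 was at 75.2 and 36.8 against 25.4, 17.6 and 109 CPM in cluster 4, and its stage difference was higher in cluster 3 by 2.19 ± 0.28 (adjusted p = 3.3e-05). Lpl, lipoprotein lipase, was at 125 and 29.7 CPM at peak and 106, 51.5 and 91.1 CPM in chronic EAE in cluster 3, and at 155 and 22.2 against 549, 492 and 1131 CPM in cluster 4 (2.12 ± 0.25). Csf1, the microglial survival factor, was at 118 and 53.6 against 86.6, 75.7 and 36.2 CPM in cluster 3, with overlap, and at 71.9 and 17.3 against 261, 212 and 129 CPM in cluster 4 (1.83 ± 0.25). For Lpl, Csf1 and Ccl3 (1.53 ± 0.21) the chronic cluster 4 cells were the highest.

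By list, 0 type I antiviral genes had a higher and 16 of 31 a lower stage difference in cluster 3 (median -1.03; 1 and 12 with library size only; 0 and 10 without peak b). Of 17 GTPases, 0 were higher and 7 lower (1 and 3 with library size only, 0 and 1 without peak b), of 19 MHC class I genes 0 and 12 (0 and 5, 0 and 2), and of 11 MHC class II genes 0 and 8 (0 and 4, 0 and 0). Of 36 nuclear complex I subunits, which serve mitochondrial respiration, 0 were higher and 27 lower (median -0.73 against 0.05 over all genes; 0 and 3 with library size only, 0 and 0 without peak b). Of 20 NADPH oxidase and antioxidant genes, 0 were higher and 8 lower (0 and 3, 0 and 2). In the fit reported, the lower stage difference in cluster 3 was thus not limited to interferon and MHC genes. With library size only, each of these counts of lower genes was smaller, that of complex I subunits by the most. In chronic EAE the type I antiviral genes and GTPases were higher in cluster 3 than in cluster 4 (median log2 ratio 1.31 each). Their counts are therefore not independent of how the cells were grouped. Of the dissociation-induced genes, 8 of 20 had a higher stage difference in cluster 3 and 0 a lower one. In cluster 4 taken alone, 452 of 9647 genes (4.69%) passed between the stages, 261 (2.71%) higher and 191 (1.98%) lower. There 13 of 16 GTPases rose and 0 fell (median 2.33), Cxcl9 rose by 3.76 and Cxcl10 by 2.74, whereas Ifit3 (1.12, adjusted p = 0.3), Isg15 (0.99, adjusted p = 0.43) and Ccl12 (-0.15, adjusted p = 0.92) did not pass. Of the complement genes, C4b (2.09) and Serping1 (3.11) rose in cluster 4 as well.

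Against the few cells of cluster 3 in healthy cord, chronic EAE cells had more Apoe, C4b, Cst7, Ccl5 and Cd74 transcripts and fewer Hpgd transcripts. The test rests on 43 cells of control b, marked as a peak-stage control, and 23 cells of control c, marked as a chronic-stage control. The control stages were not compared. By edgeR's quasi-likelihood test, 261 of 9314 genes (2.8%) passed, 152 (1.63%) higher and 109 (1.17%) lower in chronic EAE. Without control b 2 of the 13 named genes called kept the call, Apoe and Hpgd, and 2 genes passed in all; 155 passed without control c, 836 without chronic c and 15 with pool as a term. With library size only, 396 passed and 18.9% of them were higher against 58.2% in the fit reported (median of all genes -0.31), so that directions are relative to the scaling.

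Apoe was at 20910.1, 20045 and 34513 CPM in chronic EAE against 754 and 2095 CPM in control b and c (log2 fold change 4.56 ± 0.48, adjusted p = 9.3e-06); control a, outside the test, stood at 4737 CPM. C4b was at 300.4, 299 and 134 CPM against 35.9 and 12.3 CPM, with 0 UMIs in control a (3.5 ± 0.55, adjusted p = 0.00073). Cst7, cystatin F, was at 541, 646 and 302 CPM against 71.8 and 61.3 CPM (3.27 ± 0.44, adjusted p = 0.0002). These 3 genes were higher in every chronic library than in control b and c, which was a condition for naming genes other than the markers. The share of all genes without such overlap was not counted for this comparison. For Apoe and C4b, control a also lay below every chronic library. Ccl5 was at 1084, 1058 and 612 CPM against 211 and 123 CPM (2.79 ± 0.39, adjusted p = 0.00023). Cxcl10 was at 928, 457 and 891 CPM against 112 and 135 CPM (3.04 ± 0.43, adjusted p = 0.00028), but at 3202 CPM in control a, above all chronic libraries. Lgals3, galectin-3, had 0 UMIs in control b and c and 173, 94.8 and 95.1 CPM in chronic EAE, at least 12.3-fold higher against a floor of 3 counts over the 2 control libraries.
Ccl12, at 3269 and 2488 CPM in control b and c and 9062 CPM in control a, did not pass (0.83, adjusted p = 0.27), nor did Iigp1 (1.02, adjusted p = 0.17), Ccl2 (0.95, adjusted p = 0.31) or Cxcl13 (-0.01, adjusted p = 1), which was at 1343 CPM in control b and 0 in control c. After thinning, 1 cell of control b held 42 of that library's 48 Cxcl13 UMIs. The control cells of cluster 3 thus had Ccl12 with little C4b, which after thinning was detected in 5% and 4.76% of the cells of control b and c. Hpgd, which degrades prostaglandins, was at 90.5, 81.7 and 110.5 CPM against 525 and 551 CPM and fell by 2.12 ± 0.27 on the log2 scale.

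Of 25 disease-associated genes, 12 were higher and 0 lower in chronic EAE (median 1.93; 1 higher without control b and 2 with pool as a term). Of 11 class II genes, 5 were higher (H2-Aa, H2-Ab1, H2-Eb1, H2-DMb1 and Cd74), with a log2 fold change of 4.99 for Cd74 (0 without control b, 4 with pool as a term). Of 31 type I antiviral genes, 0 were higher and 8 lower (Ifit3b, Oas1a, Oas2, Ddx58, Slfn2, Slfn5, Slfn8 and Trim30a; median -1.10 against 0.08 over all genes), with 0 without control b or with pool as a term, 19 with library size only and 22 without chronic a. Of 17 GTPases, 0 were higher and 1 lower. Of 9 CC chemokines, 2 were higher (Ccl4 and Ccl5) and 1 lower (Ccl9), and of 5 CXC chemokines 3 were higher (Cxcl9, Cxcl10 and Cxcl16); no chemokine passed without control b. After thinning, Ifit3 was detected in 70.0% and 66.7% of cluster 3 cells of control b and c, in 17.0% and 19.5% at peak and in 25.8%, 17.9% and 15.9% in chronic EAE, a share that T cells of the chronic libraries, which respond to interferon themselves, had at 15.2%, 11.1% and 0% (0 of 32 thinned cells, where a floor of 3 counts allows up to 9.38% of cells with a UMI).

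The infiltrating-gate chronic library b, from the same pool as resident chronic b, held 685 cluster 3 cells. Of 8896 genes, 4 (0.045%) differed at least 2-fold between these 2 libraries. The share was 1.42% and 4.32% beside resident chronic a and c, and 17.7% and 9.57% beside resident peak a and b. Between resident chronic a and b it was 1.39%. C4b was at 332 CPM, Ccl12 at 3380 CPM, Iigp1 at 132 CPM, Ccl2 at 298 CPM, Cxcl13 at 901 CPM and Cxcl10 at 294 CPM. With it added to the chronic libraries, 2567 genes passed between peak and chronic EAE. Its cells are not a replicate of the resident gate by their label, and the values above leave it out.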

How the data were processed

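UMI counts per gene and cell are as the authors deposited them; the submitters' processing notes name GRCm38 and mm10 as builds and R 4.1.3 and Cell Ranger 3.1.0 as tools. The gene annotation was not stated. The deposited table of cells gave each cell's library, cell type and cluster, the authors' mitochondrial percent per cell and a log10 UMI total, used to match cells to the matrix. Mitochondrial genes are not among the 22598 features. The members and gene lists were chosen with earlier results of these data known.

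Counts were summed per library and cluster in Python 3.11.15 (at least 20 cells) and tested in R 4.3.3 with edgeR 4.0.16 (quasi-likelihood test, filterByExpr, TMM, Benjamini-Hochberg adjustment, threshold 0.05); all adjusted p-values come from it unless DESeq2 1.42.0 is named. The test code was tested on simulated data. Values of a few genes are not reported here. CPM use plain library size, whereas fitted fold changes also use TMM. Ratios between clusters add 5 CPM. Intervals are exact binomial (95%), and the floor for 0 is 3 counts.

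Named genes were the 5 markers; up to 10 genes per direction with the smallest p, no overlap between groups, a mean log2 CPM of 5 or more and a log2 fold change of 1 or more either way; up to 4 per list; up to 8 per direction between clusters; and up to 6 per direction for the interaction. Genes listed by name in a count of called list members come from the whole list. Other scalings, filters, DESeq2, thinning to 2000 UMIs, pool as a term and each library left out were tried; where 1 peak library remains, it is assumed to vary like the others.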

Additional observations from a re-analysis of the deposited data

Results flagged for a closer look

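The stage difference (peak minus chronic) in cluster 3 differed from that in clusters 1, 4 and 9 by the interaction test for 12 named genes. On the log2 scale it was lower in cluster 3 for Cxcl9 (-3.68), Ly6i (-2.79), Isg15 (-2.61), Cxcl13 (-2.15), Ly6a (-2.0) and Calhm6 (-1.92). It was higher in cluster 3 for Rgs1 (2.19), Lpl (2.12), Csf1 (1.83), Sall3 (1.78), Ccl3 (1.53) and Jmjd1c (1.19). Cells were placed in clusters by the same expression values. For genes that set cluster 3 apart, such as Isg15 and Cxcl13, the test is not independent of that grouping. Ly6i was at 23.2 and 18.9 CPM at peak and 18.4, 45.0 and 20.1 CPM in chronic EAE in cluster 3, and at 70.2 and 90.9 against 13.6, 44.6 and 9.46 CPM in cluster 4.

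In the infiltrating-gate chronic library b, which entered only alternative fits, C4b stood at 332 CPM and Ccl12 at 3380 CPM in cluster 3 cells, above the 2 control libraries with at least 20 such cells; the 14 cells of control a had 9062 CPM of Ccl12.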

How the results depend on the processing

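No paired analysis was possible because the deposited table of cells names libraries by letters and carries no replicate numbers that match the labels. Between peak and chronic EAE, 1638 genes passed in the fit reported, 904 with DESeq2, 946 with cells thinned, 2567 with the infiltrating-gate chronic library b added (an alternative chosen after seeing the data), 18 with pool as a term, and 285 to 2457 with 1 library left out. Between chronic EAE and controls, 261 passed in the fit reported, 396 with library size only, 475 with no filter on low counts, 167 with only the 2 groups compared, 15 with pool as a term, and 2 to 836 with 1 library left out. The interaction gave 1387, with 666 by DESeq2 and 80 to 1674 with 1 library left out. The 8 genes higher in cluster 3 than in its neighbours were 15 with a prior of 1 CPM, 4 with 20 CPM, 1 at 4-fold, and 8 to 33 with 1 library left out (33 without chronic b).

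With pool as a term, which rests on 43 and 23 control cells, the fitted direction between peak and chronic EAE turned for Ccl7 (-2.07), Cd274 (-5.60), Cd74 (4.57), Cd83 (0.86), Egr1 (-5.75), Gpx1 (0.64), Itgal (-1.50), Jun (-0.04), Ldhb (0.16), Ndufa3 (0.77), Ndufc2 (0.21), Ndufs7 (0.22), Nlrc5 (-7.62) and Pfkp (-5.18), and between chronic EAE and controls for Cxcl13 (11.82). The cause was not tested. Thinned to equal depth per cell, 212 genes passed between chronic EAE and controls.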
